A study of Mus musculus with 12 samples.

Results

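The lipogenesis and triglyceride synthesis genes are the liver genes whose products take sugar carbon to pyruvate and cytosolic acetyl-CoA, build and modify fatty acids, and join them to glycerol, together with the factors that switch these genes on. The list names 32 genes, chosen by function and by symbol with earlier results of these data known. Each is represented by the probe set that names only that gene and has the highest mean over all arrays. Of the 32, 31 had such a probe set, out of 22180 genes on the array, and all 31 entered the tests on 14031 genes. The remaining gene, Scd2, is covered by a probe set that also lists Mir5114, so no value is given for it. Tested genes exceeded the 40th percentile of their array on at least 3 arrays, and 30 of the 31 members did so on all 12 arrays. Pnpla5 was the exception.

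Liver RNA came from male mice on a C57BL/6 background that were 8 to 10 weeks old when the feeding study began and carried either a null genotype for Ppard (Pparβ/δ-/-), which encodes the nuclear receptor PPARβ/δ, or the wild-type genotype (Pparβ/δ+/+). All mice first took a liquid control diet for 1 week and then, for 16 weeks, either a liquid diet with 4% (v/v) ethanol or the control diet, so the control groups were on a liquid diet too. The 4 groups, null ethanol, null control, wild-type ethanol and wild-type control, held 3 Affymetrix Mouse Gene 2.0 ST arrays each. The feeding study had 10 mice per group, and no label ties an array to a mouse of its own. Errors and p-values therefore describe the spread between samples, which may be partly technical. The labels name no time of day or feeding state at collection and no array batch, and the colony or segment around the null allele is not described, so that such differences cannot be told apart from the genotype. Values are log2 intensities, which compare a gene between arrays but not one gene with another, because probe sets respond differently.

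Liver makes fat from carbohydrate. Fructose and glucose are broken down to pyruvate, citrate leaves the mitochondrion and is split to acetyl-CoA, acetyl-CoA carboxylase and fatty acid synthase build palmitate, and elongases and desaturases shape the chain before acyltransferases attach it to glycerol. Transcription of many of these genes is driven by SREBP-1, the product of Srebf1 that responds to insulin, and by ChREBP, the product of Mlxipl that responds to sugars. PPARβ/δ is a ligand-activated receptor that binds DNA with a retinoid X receptor partner.

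The labels were checked first. Ppard had log2 intensities of 7.88, 7.93 and 8.06 on the null ethanol arrays and 7.69, 7.90 and 7.91 on the null control arrays, against 7.96, 7.77 and 7.85 on the wild-type ethanol arrays and 7.64, 8.01 and 7.68 on the wild-type control arrays. Null and wild-type arrays overlapped (log2 change 0.08 ± 0.08 SE). The position of its probes relative to the null allele is unknown here, so this value checks no genotype. Of 10 hepatocyte markers, 9 were measured and 0 passed between genotypes averaged over the diets (1 at an unadjusted p under 0.05), while Ass1 rose in null livers on the control diet (0.55 ± 0.14, limma adjusted p = 0.0453). Albumin (Alb) ran from 13.87 to 14.05 over the 12 arrays. The adipocyte markers Adipoq, Lep and Cidea were below the filter.

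Null livers had more transcript of 10 lipogenic genes, spread across several steps of the pathway. With null compared with wild-type and averaged over the diets (6 arrays against 6), 10 of the 31 members rose and 0 fell at a Benjamini-Hochberg adjusted p under 0.05 in limma. That is 32.3% of the members, against 3.01% of all 14031 genes that rose and 3.98% that fell in this comparison. The 10 were the transcription factor Srebf1, all 3 genes of sugar entry (Khk, Tkfc, Pklr), Aacs and Acly among the 5 genes of acetyl-CoA and NADPH supply, Fasn and Acaca among the 3 of fatty acid synthesis, and Gpam and Dgat2 among the 8 of triglyceride assembly. The calls of Acly, Acaca and Dgat2 did not hold in every fit that left out an array, and that of Acly was lost in most, as given below. None of the 7 measured genes of elongation and desaturation and neither patatin-like gene passed. The median log2 change was 0.18 over the members and 0.00 over all genes (n = 31 and 14031), and 28 of the 31 members had a positive change. All 6 null arrays lay above all 6 wild-type arrays for 6 members (Srebf1, Tkfc, Pklr, Slc25a1, Gpam and Dgat2), 19.4% of them, against 1.47% of all genes. Fewer cells of a type and less RNA per cell cannot be told apart in these bulk samples.

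**Figure D1:**
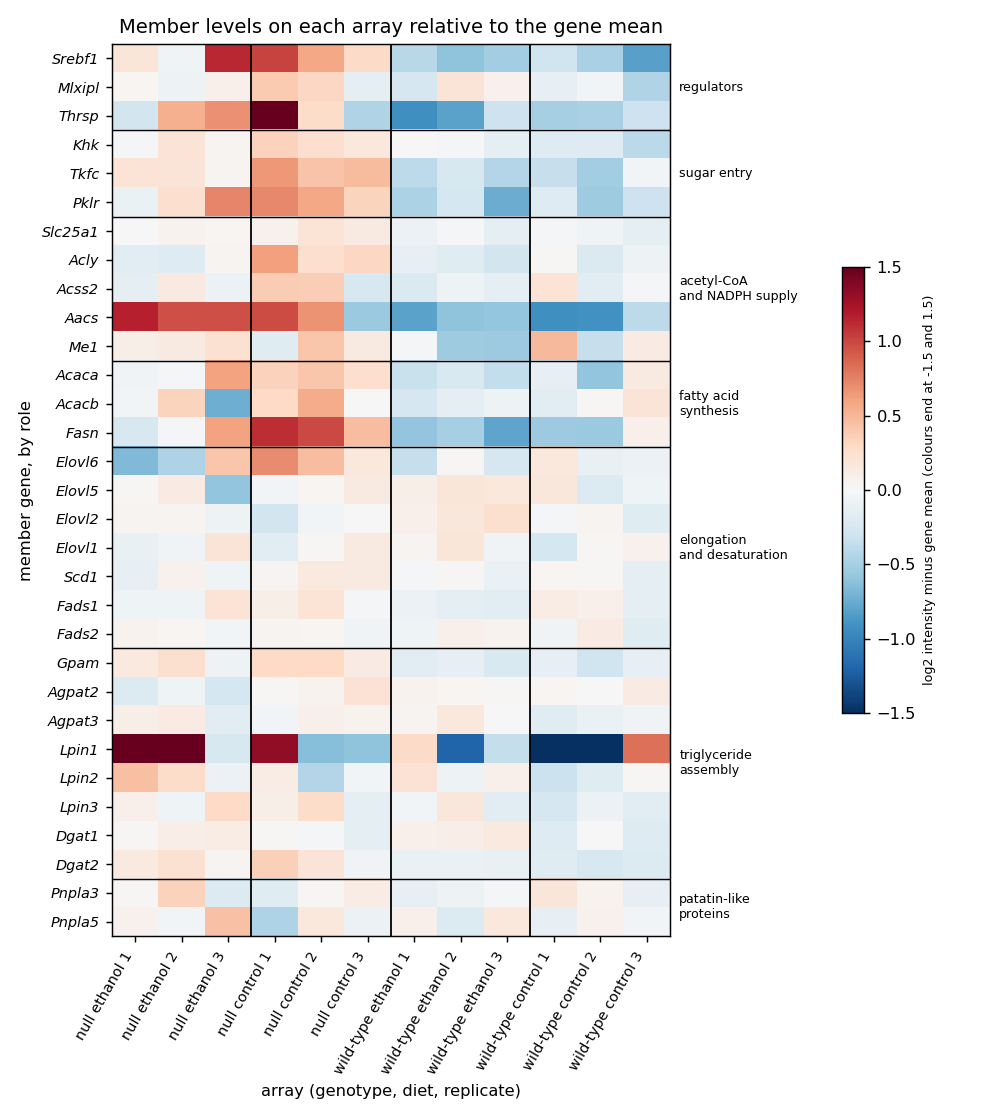
Each cell is the log2 intensity of a member on an array minus that gene's mean over the 12 arrays, with genes in rows by role and arrays in columns by group, null groups on the left. Srebf1, Tkfc, Pklr, Aacs and Fasn are mostly above their means on null arrays and below them on wild-type arrays, the rows of elongation and desaturation other than Elovl6 are mostly pale, and Lpin1, from 8.69 to 12.38, varies widely within groups.

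The promoters of 4 of the members that rose are shown as examples chosen after the values were seen: Khk as the 1 riser with an E-box, Fasn and Tkfc out of 5 with CCAAT, and Acly out of 3 with AGGTCA. The fourth motif searched, the sterol element TCACNCCAC, was in no window of the members that rose. Each line gives the 250 bases before the annotated start from RefSeq (GRCm38.p6), 5′ to 3′ on the strand of the gene, with matches in capitals. The Fasn window (chr11:120824548-120824797, minus strand) holds 3 matches to CCAAT, 1 on the gene's strand and 2 on the other, where they read ATTGG in the line, and a pair of them overlap by 2 bases. The Khk window (chr5:30921309-30921558, plus strand) holds the E-box CACGTG, a sequence that ChREBP, SREBP-1, USF and clock factors can bind, 71 bases before the start. The Tkfc window (chr19:10604259-10604508, minus strand) holds a CCAAT 66 bases before the start. The Acly window (chr11:100528001-100528250, minus strand) holds AGGTCA, the half-site of many nuclear receptors, 40 bases before the start.
Fasn: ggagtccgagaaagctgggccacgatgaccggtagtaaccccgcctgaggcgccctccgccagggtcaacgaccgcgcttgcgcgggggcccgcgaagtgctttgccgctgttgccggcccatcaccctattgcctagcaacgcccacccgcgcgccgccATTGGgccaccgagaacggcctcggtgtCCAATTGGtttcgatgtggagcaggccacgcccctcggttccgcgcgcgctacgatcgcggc
Khk: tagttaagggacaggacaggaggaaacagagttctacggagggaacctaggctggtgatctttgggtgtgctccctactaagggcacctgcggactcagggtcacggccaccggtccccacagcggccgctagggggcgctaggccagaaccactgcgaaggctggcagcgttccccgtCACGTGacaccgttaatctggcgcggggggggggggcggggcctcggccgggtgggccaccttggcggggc
Tkfc: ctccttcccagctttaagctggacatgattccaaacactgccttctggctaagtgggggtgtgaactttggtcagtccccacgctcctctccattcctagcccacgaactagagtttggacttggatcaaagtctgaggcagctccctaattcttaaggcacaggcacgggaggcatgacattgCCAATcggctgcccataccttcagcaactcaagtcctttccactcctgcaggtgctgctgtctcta
Acly: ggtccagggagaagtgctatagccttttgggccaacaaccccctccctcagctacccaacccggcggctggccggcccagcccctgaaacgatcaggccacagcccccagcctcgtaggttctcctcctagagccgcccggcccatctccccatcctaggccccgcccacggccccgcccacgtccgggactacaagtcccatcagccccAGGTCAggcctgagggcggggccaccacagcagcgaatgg

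Windows were found for 27 of the members (38 windows, since some genes have several starts), and both strands were read. The E-box CACGTG was in 6 of the 38 windows (15.8%; Elovl5, Khk, Lpin2, Mlxipl, Pnpla5 and Slc25a1), against 6.02% of all 32851 windows. CCAAT was in 17 of the 38 (44.7%), against 33.8% of all windows, and AGGTCA in 6 (15.8%), against 14.0%. The sterol element was in 1 window, of Mlxipl (2.63%), against 1.05%. Of the 9 members that rose and have a window, 1 held CACGTG, 5 held CCAAT, 3 held AGGTCA and 0 held TCACNCCAC. The sterol element can share its first letters TCA with AGGTCA and its last letters CAC with CACGTG. A match is a description of the letters and not a binding site.

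Among the regulators, Srebf1 was 2.07-fold higher in null livers (log2 change 1.05 ± 0.18 SE, limma adjusted p = 0.0045). It had log2 intensities of 9.08, 8.85 and 10.04 on null ethanol arrays and 9.92, 9.48 and 9.19 on null control arrays, against 8.49, 8.31 and 8.38 on wild-type ethanol arrays and 8.61, 8.41 and 8.09 on wild-type control arrays. All 6 null arrays lay above all 6 wild-type arrays. Mlxipl changed by 0.20 ± 0.11 (adjusted p = 0.32), and its groups overlapped. Thrsp, which encodes the lipogenic cofactor Spot 14, changed by 1.11 ± 0.39 without passing (adjusted p = 0.111). Its null control arrays read 9.78, 7.49 and 6.77 and its null ethanol arrays 6.94, 7.75 and 7.90, against 6.30 to 6.90 on wild-type ethanol and 6.72 to 6.90 on wild-type control arrays. The first null control array was the highest by a wide margin, and the third lay within the wild-type range. Without the third null control array, the lowest of the null arrays, Thrsp passed (limma adjusted p = 0.0255). It passed in no other setting of this comparison and in no other fit that left out an array.

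The genes of sugar entry all rose in null livers averaged over the diets. Tkfc, which encodes the triokinase that phosphorylates the glyceraldehyde of fructose breakdown, had the smallest adjusted p among the members. It read 11.56, 11.55 and 11.40 on null ethanol arrays and 12.00, 11.78 and 11.83 on null control arrays, against 10.96, 11.12 and 10.91 on wild-type ethanol and 11.01, 10.84 and 11.32 on wild-type control arrays, with no overlap between the genotypes. The change was 0.66 ± 0.08 (1.58-fold, limma adjusted p = 0.000496). Pklr, the liver pyruvate kinase at the end of glycolysis, rose 1.79-fold (0.84 ± 0.13, adjusted p = 0.00239). It read 10.59, 10.94 and 11.42 on null ethanol and 11.42, 11.27 and 11.03 on null control arrays, against 10.22, 10.43 and 9.95 on wild-type ethanol and 10.50, 10.16 and 10.38 on wild-type control arrays. Null and wild-type arrays of Pklr did not overlap either, although the lowest null value (10.59) and the highest wild-type value (10.50) were close. Khk, the ketohexokinase that takes up fructose by phosphorylation, rose 1.25-fold (0.32 ± 0.07, adjusted p = 0.014), with overlapping genotypes on the ethanol diet.

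Among the genes that supply acetyl-CoA and NADPH, Aacs had the largest called change of the members. Aacs encodes acetoacetyl-CoA synthetase, which returns ketone bodies to lipid synthesis in the cytosol. It read 9.36, 9.16 and 9.16 on null ethanol and 9.17, 8.86 and 7.64 on null control arrays, against 7.38, 7.59 and 7.61 on wild-type ethanol and 7.27, 7.29 and 7.79 on wild-type control arrays. The third null control array lay inside the wild-type range, and the other 5 null arrays lay more than 1 log2 unit above that range. The change averaged over the diets was 1.40 ± 0.21 (2.64-fold, limma adjusted p = 0.00148). Acly, the ATP-citrate lyase, changed by 0.29 ± 0.08 (adjusted p = 0.0469), close to the threshold. Slc25a1, the mitochondrial citrate carrier, had null arrays from 11.83 to 12.04 and wild-type arrays from 11.69 to 11.80. These did not overlap, but its change of 0.16 ± 0.06 missed the threshold (adjusted p = 0.101), which it passed with array weights and with trend and robust eBayes. Acss2, the cytosolic acetyl-CoA synthetase that uses acetate, changed by 0.14 ± 0.11 (adjusted p = 0.526), and Me1, the malic enzyme that makes NADPH, by 0.28 ± 0.14 (adjusted p = 0.289).

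Fatty acid synthase (Fasn) was 1.95-fold higher in null livers (0.97 ± 0.16, limma adjusted p = 0.00334). It read 9.98, 10.19 and 10.82 on null ethanol and 11.32, 11.20 and 10.68 on null control arrays, against 9.62, 9.72 and 9.43 on wild-type ethanol and 9.67, 9.66 and 10.29 on wild-type control arrays. Each diet's null arrays lay above its wild-type arrays, and the single wild-type control array at 10.29 reached into the null ethanol range. Acaca, the acetyl-CoA carboxylase that commits carbon to fat, rose 1.42-fold (0.51 ± 0.13, adjusted p = 0.035). Acacb, the isoform at the mitochondrion whose malonyl-CoA restrains fat oxidation, changed by 0.14 ± 0.15 (adjusted p = 0.656, 95% confidence interval -0.19 to 0.47).

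**Figure D2:**
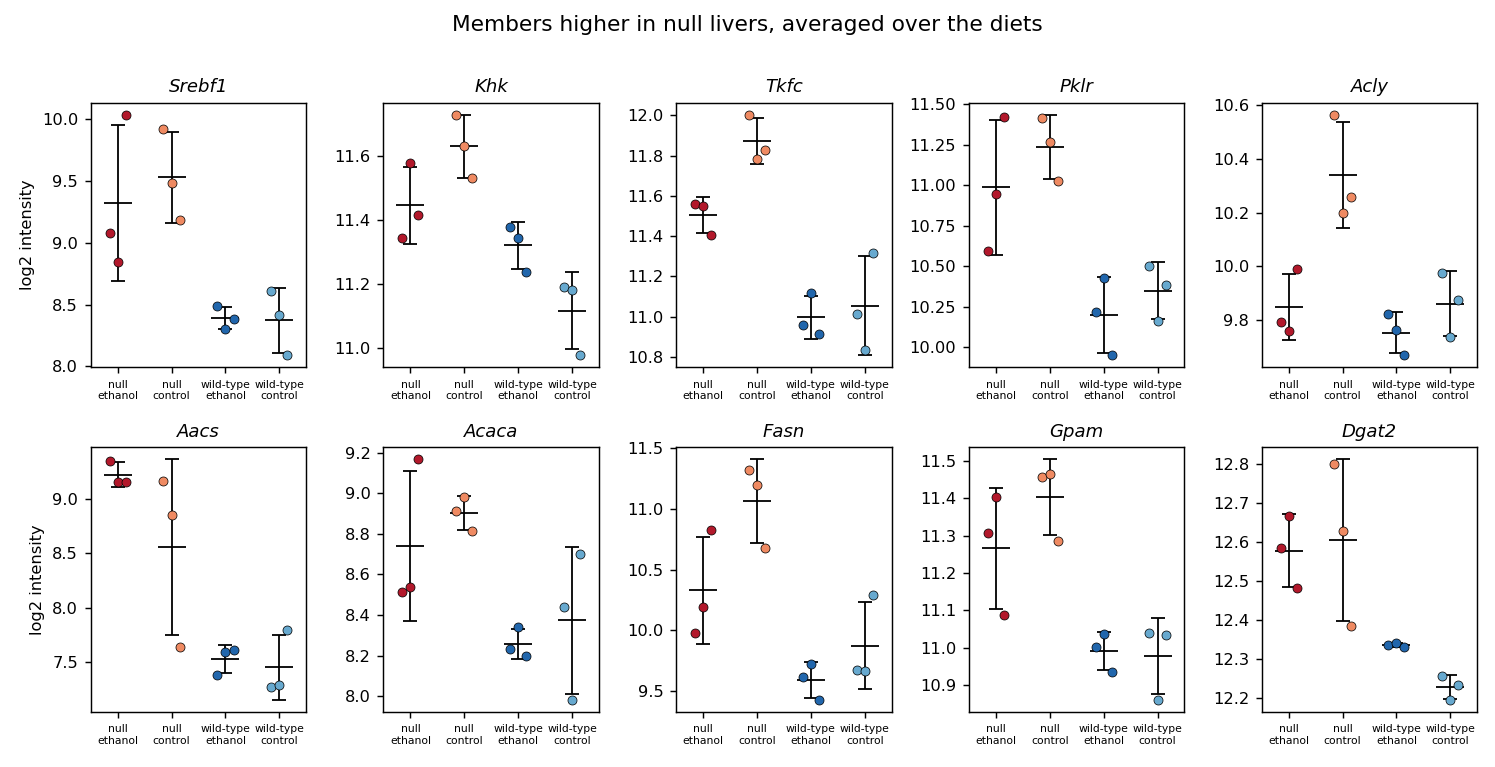
Log2 intensity (vertical axes, each with its own range) of the 10 members that rose, on each array (points) with the group mean and SD (bars, n = 3), in the order null ethanol, null control, wild-type ethanol, wild-type control. For Tkfc the 6 null arrays sit between 11.40 and 12.00 and the 6 wild-type arrays between 10.84 and 11.32, while Acly stands high on the null control arrays (10.20 to 10.57) compared with the other 9.

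None of the elongation and desaturation genes passed. The elongases Elovl6, Elovl5, Elovl2 and Elovl1, the stearoyl-CoA desaturase Scd1 and the polyunsaturated fatty acid desaturases Fads1 and Fads2 had changes from -0.11 to 0.20, and 0 of the 7 passed the adjusted or the unadjusted threshold of 0.05. Scd1, a classic SREBP-1 target, read 13.28 to 13.46 on null ethanol and 13.44 to 13.55 on null control arrays, against 13.30 to 13.41 on wild-type ethanol and 13.25 to 13.43 on wild-type control arrays. Its change of 0.07 ± 0.06 had a 95% confidence interval from -0.07 to 0.20. The interval of Fads2, from -0.12 to 0.16, was equally narrow, whereas that of Elovl6, from -0.15 to 0.55, was wide enough to hold a change the size of the one in Acaca.

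In triglyceride assembly, Gpam, the mitochondrial glycerol-3-phosphate acyltransferase that adds the first acyl chain, rose 1.27-fold (0.35 ± 0.07, limma adjusted p = 0.0103). Its null arrays read 11.31, 11.40 and 11.09 on ethanol and 11.46, 11.46 and 11.29 on control diet, against 11.00, 11.04 and 10.94 on wild-type ethanol and 11.04, 10.86 and 11.03 on wild-type control arrays. Dgat2, which adds the last acyl chain, rose 1.24-fold (0.31 ± 0.07, adjusted p = 0.0218), with null arrays from 12.39 to 12.80 and wild-type arrays from 12.20 to 12.34. For both genes every null array lay above every wild-type array. The other enzyme of the last step, Dgat1, changed by 0.02 ± 0.06 (adjusted p = 0.879, 95% confidence interval -0.11 to 0.15). The 1-acylglycerol-3-phosphate acyltransferases Agpat2 and Agpat3 changed by -0.08 ± 0.06 and 0.04 ± 0.07, and the phosphatidate phosphatases Lpin2 and Lpin3 by 0.09 ± 0.11 and 0.18 ± 0.09. A second, dimmer probe set of Lpin2 (mean 7.40) was not tested by itself. It read 7.54 to 7.77 on null ethanol and 7.51 to 8.56 on null control arrays. On wild-type ethanol arrays it read 6.67 to 7.34 and on wild-type control arrays 6.14 to 7.95, so the value of Lpin2 depends on the probe set. The patatin-like genes Pnpla3, a lipid droplet enzyme, and Pnpla5 were dim (means of 6.06 and 5.69, near the filter of 5.61 to 5.72) and changed by 0.04 ± 0.09 and 0.02 ± 0.12.

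Lpin1, the lipin that acts both as a phosphatase and as a transcriptional coactivator, had the widest spread of the members. It read 12.31, 12.38 and 10.15 on null ethanol and 11.73, 9.76 and 9.79 on null control arrays, against 10.68, 9.20 and 10.03 on wild-type ethanol and 8.79, 8.69 and 11.22 on wild-type control arrays. Arrays of 1 group differed by up to 2.53, so its change of 1.25 ± 0.53 did not pass (limma adjusted p = 0.192, 95% confidence interval 0.10 to 2.40). The pooled SD within groups was 1.17 for Lpin1, 0.85 for Thrsp, 0.44 for Aacs and 0.39 for Srebf1, against a median of 0.178 over the 31 members.

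**Figure D3:**
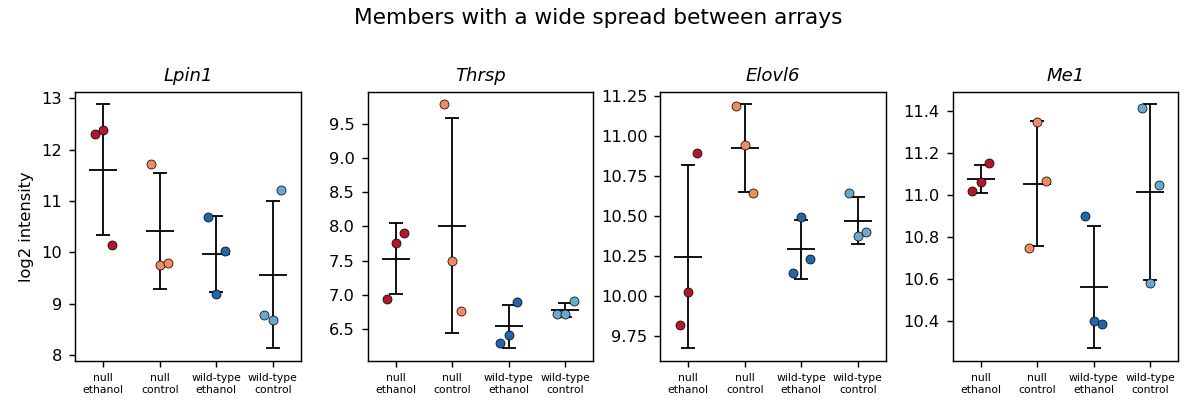
Log2 intensity (vertical axes, each with its own range) of Lpin1, Thrsp, Elovl6 and Me1 on each array (points) with group mean and SD (bars, n = 3), null groups on the left. In Lpin1 the third null ethanol array (10.15) lies far below the other 2, and in Thrsp the first null control array (9.78) lies far above the other 11.

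Some arrays were extreme for many members at once. The same counts were not made over all genes, so the counts below are not shown to be particular to the members. The first null control array was the highest of its group for 16 of the 31 members, Srebf1, Thrsp, Fasn and Elovl6 among them, and the third was the lowest for 17. On the ethanol diet the third null array had the highest Srebf1, Thrsp, Pklr, Acaca, Fasn and Elovl6 of its group and the lowest Lpin1, Gpam and Dgat2. In the wild-type ethanol group the second array was the highest for 16 members and the third the lowest for 16.

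The null livers were next compared with wild-type livers within each diet. On the control diet 8 members rose and 0 fell, which is 25.8% of 31 against 3.21% of all genes that rose and 1.89% that fell. They were Tkfc (0.82 ± 0.12, limma adjusted p = 0.00243), Khk (0.51 ± 0.10, adjusted p = 0.0113), Fasn (1.19 ± 0.23, adjusted p = 0.0122), Pklr (0.89 ± 0.19, adjusted p = 0.0201), Srebf1 (1.16 ± 0.26, adjusted p = 0.0247), Acly (0.48 ± 0.11, adjusted p = 0.0298), Gpam (0.42 ± 0.10, adjusted p = 0.0308) and Aacs (1.10 ± 0.29, adjusted p = 0.0476). Khk read 11.73, 11.63 and 11.53 on null control arrays, against 11.19, 11.18 and 10.98 on wild-type control arrays, and Acly read 10.57, 10.20 and 10.26, against 9.97, 9.73 and 9.87. Of these 8, all but Aacs had groups without overlap. Dgat2 just missed the threshold (0.37 ± 0.10, adjusted p = 0.0523) and passed without the third null control or the third null ethanol array. In all, 13 members lay higher without overlap (41.9%, against 14.6% of all genes) and 0 lay lower (10% of all genes). The median change was 0.24, against 0.01 over all genes. The call of Aacs was lost in 11 of the 12 fits that left out 1 array, all but the one without the third null control array, and in 5 of the 10 other settings. The count rested on few arrays: 1 member (Tkfc) was called without the second null control array, 3 without the first null control or the third wild-type control array, and 5 without the first or the second wild-type control array. It was also 5 with no filter and 4 with only these 2 groups in the fit.

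On the ethanol diet Aacs was the only member called, 3.24-fold higher in null livers (1.70 ± 0.29, limma adjusted p = 0.00883). That is 3.23% of the members, against 0.456% of all genes that rose. Tkfc (0.51 ± 0.12, adjusted p = 0.0526), Pklr (0.79 ± 0.19, adjusted p = 0.0548), Srebf1 (0.93 ± 0.26, adjusted p = 0.0989) and Fasn (0.74 ± 0.23, adjusted p = 0.13) missed the threshold. For all 5 the 3 null arrays lay above the 3 wild-type arrays. Groups did not overlap for 12 members with null higher (38.7%, against 9.74% of all genes) and for 2 with null lower, Agpat2 (-0.21 ± 0.09) and Elovl2 (-0.16 ± 0.10) (14.4% of all genes). The median change was 0.13, against -0.02 over all genes. A second member joined Aacs when 1 array was left out: Tkfc without the first null control or the second or the third wild-type control array, and Pklr without the first null ethanol array. The count was 2 to 4 under 7 of the other settings.

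Of the 8 members called on the control diet, 7 had a smaller change on the ethanol diet, Aacs being the exception. Because the 8 were picked by their control-diet change, a smaller change on the other diet is expected from that choice alone. Khk changed by 0.13 ± 0.10 on ethanol and 0.51 ± 0.10 on control diet, and Acly by 0.09 ± 0.11 and 0.48 ± 0.11. The test of this difference is the interaction, in which 0 members and 2 of all 14031 genes (0.0143%) passed in limma. At an unadjusted p under 0.05 there were 2 members, Khk (-0.39 ± 0.14, adjusted p = 0.244) and Acly (-0.39 ± 0.16, adjusted p = 0.283), against 15% of all genes, and 24 of the 31 interaction values were negative, against 56% of all genes. The signs depend on the normalization. With equal array medians the median interaction over all genes was 0.094 in place of -0.038, and the negative median of the members was lost too. The intervals were wide, such as -1.15 to 0.25 for Fasn and -1.02 to 0.57 for Srebf1, so a different genotype effect on the diets was not shown and changes of this size were not excluded.

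**Figure D4:**
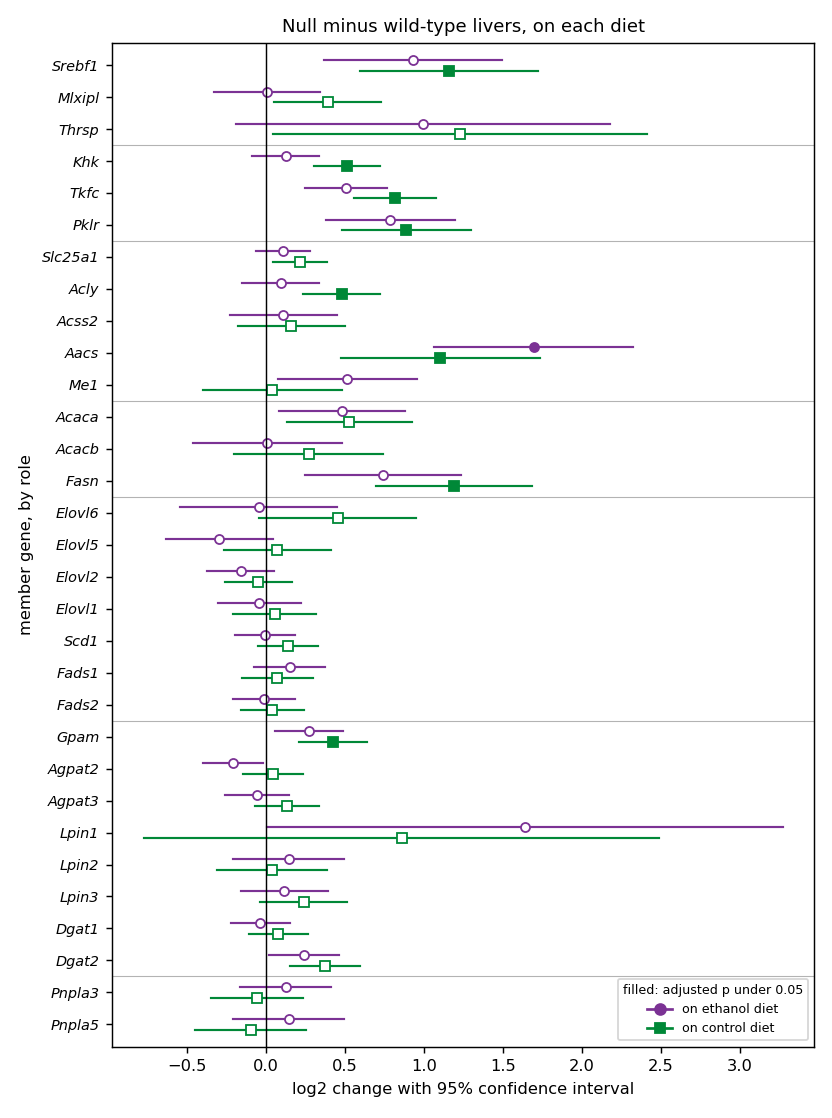
Log2 change of each member between null and wild-type livers (horizontal axis) with its 95% confidence interval, on the ethanol diet (circles) and on the control diet (squares), filled where the adjusted p is under 0.05. Filled squares mark the 8 members called on the control diet and the filled circle marks Aacs (1.70) on the ethanol diet, and the intervals of the 2 diets overlap for every member.

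Ethanol feeding itself left no member past the threshold. In null mice 0 of 31 members passed for ethanol against control diet (1 of 14031 genes, 0.00713%), and at an unadjusted p under 0.05 there were 6 members, 19.4% of 31, against 12.2% of all genes. The smallest p was that of Acly, with 9.79, 9.76 and 9.99 on null ethanol arrays against 10.57, 10.20 and 10.26 on null control arrays (-0.50 ± 0.11, limma adjusted p = 0.213). Its arrays did not overlap. Fasn changed by -0.73 ± 0.23 (adjusted p = 0.293), Elovl6 by -0.68 ± 0.23 (adjusted p = 0.311), Tkfc by -0.37 ± 0.12 (adjusted p = 0.302), Agpat2 by -0.27 ± 0.09 (adjusted p = 0.296) and Aacs by 0.67 ± 0.29 (adjusted p = 0.389). The median over the members was -0.14, against -0.05 over all genes, and 20 of the 31 changes were negative, against 61.9% of all genes. Groups did not overlap with ethanol lower for 4 members, Acly, Agpat2, Slc25a1 and Tkfc (13% of all genes).

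In wild-type mice 0 members passed for ethanol against control diet (13 of all genes, 0.0927%), and 3 did at an unadjusted p under 0.05, against 14.5% of all genes. Dgat1 read 9.60, 9.63 and 9.68 on wild-type ethanol arrays against 9.34, 9.53 and 9.34 on wild-type control arrays (0.23 ± 0.09, limma adjusted p = 0.249). Me1 changed by -0.45 ± 0.20 (adjusted p = 0.331) and Elovl2 by 0.22 ± 0.10 (adjusted p = 0.334). Srebf1 was near 0 (0.02 ± 0.26), with an interval from -0.54 to 0.58, and so was Scd1 (0.00 ± 0.09, -0.19 to 0.19). The median over the members was 0.01. Ethanol groups lay above control groups without overlap for Agpat3, Dgat1, Dgat2, Elovl2 and Khk (16.1% of the members, against 10.8% of all genes). With array weights estimated by limma Dgat1 passed, as did 832 of all genes. Without the second wild-type control array 0 members passed in limma, while 811 of 13982 genes did (5.8%).

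**Figure D5:**
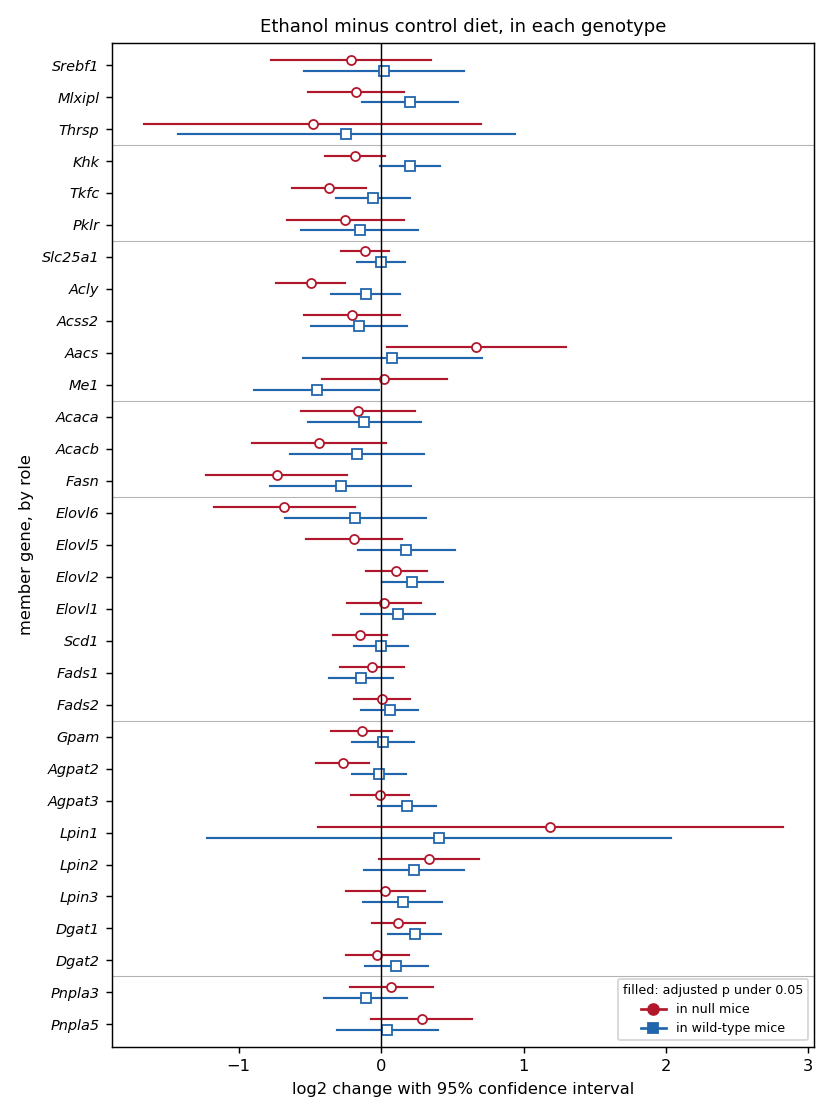
Log2 change of each member between ethanol and control diet (horizontal axis) with its 95% confidence interval, in null mice (circles) and in wild-type mice (squares), where filled symbols would mark an adjusted p under 0.05. No symbol is filled, most intervals include 0, and those of Acly (-0.50), Fasn (-0.73), Elovl6 (-0.68), Tkfc (-0.37) and Agpat2 (-0.27) in null mice lie below it.

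Averaged over the genotypes, ethanol against control diet gave 0 called members (2 of all genes, 0.0143%) and 8 at an unadjusted p under 0.05 (12.1% of all genes), 5 of them negative. These included Acly at -0.30 ± 0.08 (limma adjusted p = 0.228), Fasn at -0.51 ± 0.16 (adjusted p = 0.274) and Dgat1 at 0.18 ± 0.06 (adjusted p = 0.3). Lpin2, by the brighter of its probe sets, was at 0.28 ± 0.11 (adjusted p = 0.364). With array weights Acly passed.

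Other genes of the pathway were read from lists by function, beside 3.01% of all genes that rose and 3.98% that fell averaged over the diets. Among 13 tested regulators outside the members, 3 rose in null livers averaged over the diets and 0 fell: Usf2 (0.36 ± 0.08, limma adjusted p = 0.0132), an E-box factor, Mid1ip1 (0.82 ± 0.20, adjusted p = 0.0292), which encodes a partner of acetyl-CoA carboxylase related to Spot 14, and Srebf2 (0.36 ± 0.10, adjusted p = 0.0434), the cholesterol-regulating SREBP. Mid1ip1 also rose on the control diet (1.18 ± 0.29, adjusted p = 0.0334). Of 8 further genes of glycolysis and NADPH supply, Slc2a2, the liver glucose transporter, rose (0.39 ± 0.08, adjusted p = 0.0111) and Me2, the mitochondrial malic enzyme, fell by 0.34 on the log2 scale (adjusted p = 0.0123). Of 13 other tested acyl-chain enzymes 0 rose and 2 fell. Elovl3, an elongase of very long chains with clock- and sex-dependent expression in mouse liver, read 11.29, 11.84 and 10.68 on null ethanol and 11.51, 12.11 and 12.63 on null control arrays, against 12.82, 12.93 and 12.53 on wild-type ethanol and 12.85, 12.72 and 13.26 on wild-type control arrays (-1.17 ± 0.20, adjusted p = 0.00436). Oxsm, of mitochondrial fatty acid synthesis, changed by -0.43 ± 0.12 (adjusted p = 0.0434). Among 9 other glycerolipid acyltransferases and related enzymes, Gpat2 rose (0.26 ± 0.07, adjusted p = 0.0405) and Cds2 fell by 0.24 (adjusted p = 0.0475).

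Genes of other processes and cell types moved with the genotype as well. Averaged over the diets, 3.01% of all genes rose in null livers and 3.98% fell. Of 12 macrophage and Kupffer cell markers 11 fell in null livers averaged over the diets, led by Cd5l (-0.94 ± 0.12, limma adjusted p = 0.000341). Their summed linear intensity was 4516 to 6578 on null ethanol and 3571 to 4824 on null control arrays, against 7123 to 9079 on wild-type ethanol and 5633 to 8200 on wild-type control arrays. Of 16 clock genes 4 rose and 3 fell, among them Bhlhe40 (0.93 ± 0.14, adjusted p = 0.00201), Clock (-0.55 ± 0.09, adjusted p = 0.00354) and Arntl (-1.24 ± 0.28, adjusted p = 0.0165). Their summed intensity was 9172 to 9991 on null ethanol and 8189 to 11634 on null control arrays, against 8139 to 8888 on wild-type ethanol and 7109 to 8792 on wild-type control arrays. Because some of these genes rose and others fell, the sum does not measure the state of the clock. The third wild-type control array had Arntl at 9.62, against 8.35 and 7.86 on the other wild-type control arrays. That array was the highest of its group for 11 members, Lpin1, Fasn and Acaca among them. It was the lowest for 9, among them Srebf1, Mlxipl and Khk. Of 9 fasting-induced genes Fgf21 rose (1.15 ± 0.19, adjusted p = 0.00251), with 33857 to 39105 summed on null ethanol and 38203 to 42509 on null control arrays, against 35524 to 39673 on wild-type ethanol and 33899 to 40054 on wild-type control arrays. Of 10 stellate and endothelial markers Pecam1 fell by 0.37 (adjusted p = 0.0201), and of 4 tested adipocyte markers Fabp4, which macrophages also express, fell by 0.43 (adjusted p = 0.037). What part these shifts have in the members' changes was not tested.

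Across the alternatives, 7 members (Srebf1, Khk, Tkfc, Pklr, Aacs, Fasn and Gpam) kept their genotype call, averaged over the diets, in all 12 fits that each left out 1 array. Dgat2 kept it in 8, losing it without the second null control, the first or second null ethanol or the third wild-type ethanol array. Acaca kept it in 6, losing it without the first or second null control, the first wild-type control or any wild-type ethanol array. Acly kept it in 1 of 12, the fit without the second null control array.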

How the data were processed

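Liver RNA (100 ng per sample) was biotin-labelled and read on Affymetrix Mouse Gene 2.0 ST arrays. The authors deposited 1 linear intensity per probe set and array, summarised with RMA (per the submitters' processing notes); no software or setting is stated. The deposited intensities ran from 1.816 to 20156, and log2 was taken here. Array medians lay between 5.55 and 5.62 on the log2 scale. Of 41345 probe sets, 23521 name 1 gene, 1814 several and 16010 none; of the 23521, 23328 had an Entrez ID in RefSeq GRCm38.p6, which changed 0 symbols.

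Groups came from the sample titles. All 12 arrays entered 1 limma fit with 4 group means, using limma 3.58.1 in R 4.3.3 (lmFit, contrasts.fit, eBayes without trend, not robust; 8 residual and 4.952 prior degrees of freedom), with Benjamini-Hochberg adjustment over 14031 genes; errors beside changes are standard errors. The number of arrays limits the precision. The steps were tested on simulated data. Alternatives covered the filter, normalization, offset, probe sets, array weights, groups in the fit, the replicate number as a block and each array left out. Promoter windows hold the 250 bases before a start; the bases after it, planned for the same search, were left out.

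The members and the lists were chosen with earlier results of these data known. Each member that passes is named, the others by role, and of each other list up to 4 genes with the smallest p; any other choice is stated. Same-numbered arrays of different groups did not deviate together on average (mean correlation -0.02 over 18 pairs, 2 above 0.1). No pairing by number was seen, but so few arrays per group cannot exclude one.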

Additional observations from a re-analysis of the deposited data

How the results depend on the processing

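Each result was recomputed with 10 other settings (9 for the averages and the interaction) and with each of the 12 arrays left out. The genotype comparison averaged over the diets gave 7 to 10 called members with 1 array left out and 8 to 11 under the other settings, all higher in null livers, and the median change over the members ran from 0.15 to 0.24. In no comparison did that median move by more than 0.162, the pooled SD within groups of the members' median level on an array. That SD is of levels and not of changes, and it exceeds several of the medians in size. Staying within it therefore does not show that a median kept its size or sign. The interaction median of -0.12 was 0.01 with equal array medians. On the control diet the count of 8 was 5 with no filter and 4 with only the 2 groups of the comparison in the fit, and 1 to 9 with 1 array left out. On the ethanol diet the count of 1 was 3 with equal array medians, with log2 of the value plus 16 and with a filter at the 60th percentile, 4 with array weights, 2 with trend and robust eBayes, with repeated quantile normalization and with only those 2 groups, and 1 to 2 with 1 array left out. With array weights, ethanol in wild-type mice and ethanol averaged over the genotypes each called 1 member in place of 0. With the replicate number as a block the counts were 10 averaged over the diets, 7 on the control diet, and 1 on the ethanol diet. With 1 array left out, the genotype change of Pnpla3 ran from -0.0382 (without the second null ethanol array) to 0.1012 averaged over the diets, being -0.003 without the third wild-type control array, and from -0.0216 (again without the second null ethanol array) to 0.2572 on the ethanol diet. That of Pnpla5 on the control diet ran from -0.2417 to 0.0692 (without the first null control array) and was 0.0114 with array weights, and the ethanol change of Thrsp averaged over the genotypes ran from -0.6753 to 0.0788 (without the first null control array). None of these passed in any setting. Over all genes the genotype comparison averaged over the diets called 982 genes, against 664 with no filter, 1863 with array weights and 621 to 1317 with 1 array left out. The control-diet comparison called 715, against 226 to 1631 under the other settings and 193 to 1306 with 1 array left out, and the ethanol-diet comparison 251, against 169 to 829 and 108 to 320. Ethanol in wild-type mice called 13, against 7 to 832 and 0 to 811, ethanol in null mice 1, against 0 to 9 and 0 to 3, ethanol averaged over the genotypes 2, against 0 to 133 and 0 to 293, and the interaction 2, against 0 to 38 and 0 to 84. The upper ends of 1317, 1306, 811, 293 and 84 with 1 array left out all came without the second wild-type control array. The cause of these shifts was not tested, except that no filter adds genes to the adjustment. Pnpla3 and Pnpla5 lie near the filter, so their signal over background limits what can be said of them.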
